A study of Arabidopsis thaliana with 12 samples.

Results

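The SnRK2 kinases are the SNF1-related protein kinases of the plant osmotic stress and abscisic acid (ABA) pathway. Their genes were followed here by locus identifier as SnRK2.1 to SnRK2.10, 10 of the 36795 entries of a gene count table from Arabidopsis thaliana seeds. RNA was sequenced in 12 libraries, 2 per group, labelled biological replicates. The amiR-SYD-1 and amiR-SYD-2 lines (SYD1 and SYD2 here) carry an artificial microRNA against SPLAYED (SYD), a SWI/SNF chromatin remodelling ATPase, and the amiR-HsMYO line (HsMYO) is labelled as the wild-type control, so every group carries an artificial microRNA. In each line, seeds sown on medium with 2 µM (±)-ABA were set against seeds on medium with 0.002% ethanol, the control. Seeds stayed on that medium for 3 days at 4 °C in the dark and then for 24 h in a cycle of 16 h light and 8 h dark. The sources used here give neither the promoter of the artificial microRNAs nor the number of seeds per sample.

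In the core ABA pathway, ABA bound to a PYR/PYL receptor blocks the clade A PP2C phosphatases, which otherwise keep SnRK2 kinases inactive. The freed kinases phosphorylate bZIP factors of the ABF/ABI5 group and ion channels, and in seeds this signal holds back germination and seedling growth. SnRK2.2, SnRK2.3 and SnRK2.6 (OST1), which form subclass III, are the strongly ABA-activated members. SnRK2.2 and SnRK2.3 act mainly in seeds and seedlings, and SnRK2.6 is known for stomatal closure in guard cells. SnRK2.7 and SnRK2.8 form subclass II, which ABA activates weakly, and SnRK2.1, SnRK2.4, SnRK2.5, SnRK2.9 and SnRK2.10 form subclass I, which ABA does not activate; apart from SnRK2.9, its members respond to osmotic stress. Kinase activity was not measured in these data: all values below are transcript levels, and in whole seeds fewer cells of a type and less RNA per cell cannot be told apart.

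On the TAIR10.1 assembly the ABA-activated genes are SnRK2.2 (AT3G50500, chr3:18741444-18744174, minus strand), SnRK2.3 (AT5G66880, chr5:26710302-26712971, plus strand) and SnRK2.6 (AT4G33950, chr4:16271745-16274825, plus strand). Subclass II holds SnRK2.7 (AT4G40010, chr4:18548444-18551183, minus strand) and SnRK2.8 (AT1G78290, chr1:29457205-29459493, minus strand). Subclass I holds SnRK2.1 (AT5G08590, chr5:2783168-2786113, plus strand), SnRK2.4 (AT1G10940, chr1:3655673-3658612, minus strand), SnRK2.5 (AT5G63650, chr5:25481334-25483799, minus strand), SnRK2.9 (AT2G23030, chr2:9803492-9806731, minus strand) and SnRK2.10 (AT1G60940, chr1:22439063-22442221, minus strand). The table holds 1 count per gene and library, so splice forms cannot be told apart.

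SYD itself had 98.6 to 153 CPM (counts scaled to a common library size with TMM factors) in the 8 SYD1 and SYD2 libraries and 178 to 230 CPM in the 4 HsMYO libraries. The mean of both SYD lines was lower than HsMYO by a log2 difference of -0.58 on ABA (adjusted p = 3.7e-05) and of -0.81 on ethanol (adjusted p = 1.4e-06; edgeR quasi-likelihood test with Benjamini-Hochberg adjustment over all 19612 tested genes, as in every adjusted p below unless another tool is named). Called below means an adjusted p under 0.05. Marker lists were read for the tissues in the sample. Seed reserve and mobilisation genes summed to between 24845 and 41979 CPM in every library, and endosperm genes to between 2386 and 4945 CPM. Most of the endosperm sum came from EPR1, with group means of 2178 to 3632 CPM, while AGL62 had 0.267 to 0.646 CPM. Seed coat genes summed to between 33.6 and 76.6 CPM. ZOU of the endosperm list and TT12 of the seed coat list were each at 0 in 5 of the 6 groups. With 2 libraries per group, p-values measure only the spread between these samples.

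Of the 10 SnRK2 genes, 9 passed the filter on low counts and were tested; SnRK2.9 did not. Transcript level was compared between genes as CPM per kilobase of annotated exon. SnRK2.2 stood first and SnRK2.1 next in all 6 groups, their libraries apart from each other in each group. SnRK2.2 had 81.1 ± 0.3 and 83.3 ± 0.4 CPM per kb in SYD1 and SYD2 on ABA, 72.3 ± 0.8 and 76.7 ± 1.9 CPM per kb in SYD1 and SYD2 on ethanol, and in HsMYO 76.8 ± 0.8 CPM per kb on ABA and 59.4 ± 2.0 CPM per kb on ethanol (SD, n = 2 in each group). SnRK2.10 was the third and SnRK2.3 the fourth in every group, but their libraries overlapped in SYD2 on ethanol and in both HsMYO groups. SnRK2.6 was the sixth or the seventh, at 13.9 to 21.2 CPM per kb as group means. SnRK2.8 overlapped SnRK2.6 in SYD2 on ethanol and SnRK2.5 in SYD1 on ethanol, and SnRK2.6 overlapped SnRK2.5 in both SYD2 groups. SnRK2.7 was the ninth, at 0.783 to 7.51 CPM per kb, and SnRK2.9 lowest, at 0 to 0.147 CPM per kb. Against all tested genes, the SnRK2.2 level lay between the 90.9th and 93.6th percentile over the groups and that of SnRK2.7 between the 12.8th and 45.7th.

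**Figure D1:**
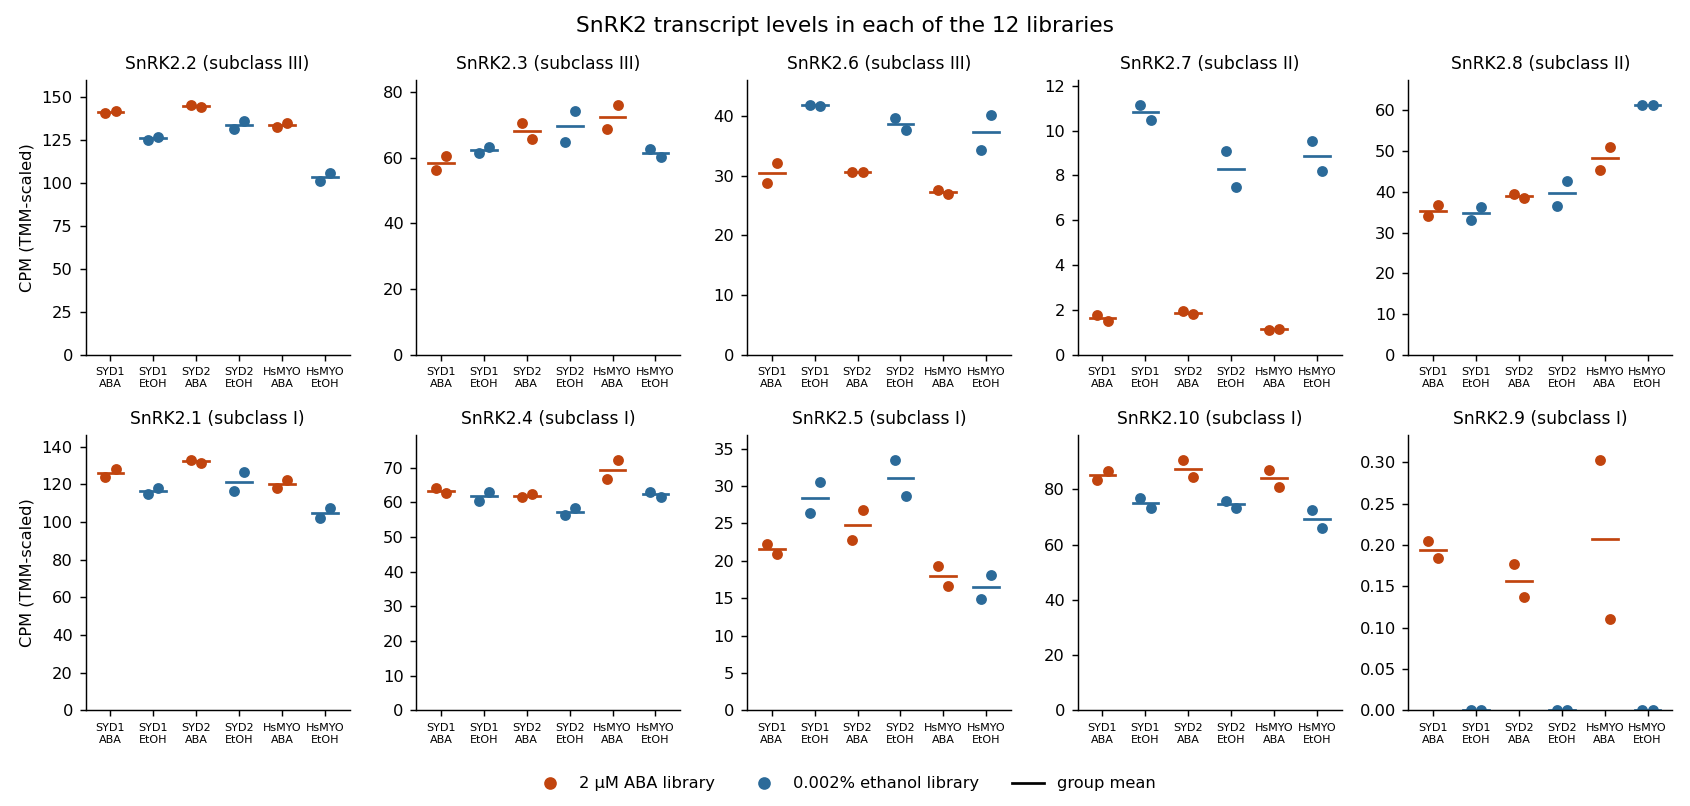
TMM-scaled CPM (vertical axis, linear from 0, a separate scale in each panel) of the 10 SnRK2 genes in each library; points are libraries, lines are means of 2, and the groups run from SYD1 on ABA at the left to HsMYO on ethanol at the right. SnRK2.7 lies between 1.11 and 1.94 CPM in the 6 ABA libraries and between 7.48 and 11.2 CPM in the 6 ethanol libraries, and SnRK2.9 is at 0 in every ethanol library.

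The promoters below are shown for SnRK2.7 and SnRK2.9, the members with the widest gap between treatments. Beside them are the promoters of SnRK2.8 (subclass II, as SnRK2.7) and of SnRK2.3, the ABA-activated member that holds the motif marked below. Each is the 250 bases before the annotated gene start, read 5′ to 3′ on the strand of the gene from the TAIR10.1 reference (RefSeq): chr4:18551184-18551433 on the minus strand for SnRK2.7, chr2:9806732-9806981 on the minus strand for SnRK2.9, chr5:26710052-26710301 on the plus strand for SnRK2.3 and chr1:29459494-29459743 on the minus strand for SnRK2.8. Capitals mark matches to ACGTG, the core of the ABA-responsive element that ABF/ABI5 factors bind, searched on both strands; where the match is part of the palindrome CACGTG (the G-box), the whole palindrome is in capitals and holds ACGTG once on each strand.
SnRK2.7: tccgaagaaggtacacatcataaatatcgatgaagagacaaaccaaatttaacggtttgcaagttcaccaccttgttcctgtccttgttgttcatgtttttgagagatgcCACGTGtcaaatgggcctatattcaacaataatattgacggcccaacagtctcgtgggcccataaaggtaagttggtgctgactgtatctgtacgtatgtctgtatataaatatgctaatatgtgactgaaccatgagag
SnRK2.9: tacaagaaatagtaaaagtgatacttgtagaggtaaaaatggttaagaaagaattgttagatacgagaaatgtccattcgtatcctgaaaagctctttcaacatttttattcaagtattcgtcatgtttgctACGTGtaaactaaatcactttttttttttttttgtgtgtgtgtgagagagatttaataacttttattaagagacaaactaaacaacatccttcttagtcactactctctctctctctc
SnRK2.3: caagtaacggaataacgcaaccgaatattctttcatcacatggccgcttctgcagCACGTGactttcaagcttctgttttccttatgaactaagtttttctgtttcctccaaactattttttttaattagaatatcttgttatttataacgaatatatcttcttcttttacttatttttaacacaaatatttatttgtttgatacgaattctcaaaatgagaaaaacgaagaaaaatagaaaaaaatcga
SnRK2.8: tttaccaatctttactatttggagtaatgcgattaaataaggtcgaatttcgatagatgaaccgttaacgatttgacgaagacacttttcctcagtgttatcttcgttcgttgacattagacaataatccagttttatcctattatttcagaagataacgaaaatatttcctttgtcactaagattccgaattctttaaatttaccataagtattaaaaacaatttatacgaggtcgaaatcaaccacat
The G-box began at base -140 from the gene start in SnRK2.7 and at -195 in SnRK2.3, and the ACGTG of SnRK2.9 began at -118. The other 7 members, SnRK2.2 and SnRK2.6 among them, held no ACGTG in this window. Of 27443 promoters of the same length, 22.9% held ACGTG and 6.49% held CACGTG. SnRK2.7, SnRK2.9 and SnRK2.3, which share the match, did not share a direction on ABA, as given next.

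SnRK2.7 showed the widest change of the tested members, falling on ABA in all 3 lines. It had 1.79 and 1.52 CPM on ABA against 11.2 and 10.5 CPM on ethanol in SYD1, 1.94 and 1.83 CPM on ABA against 9.09 and 7.48 CPM on ethanol in SYD2, and 1.11 and 1.15 CPM on ABA against 9.53 and 8.19 CPM on ethanol in HsMYO. Every ABA library was below every ethanol library. The log2 difference was -2.71 ± 0.18 in SYD1 (6.54-fold lower, adjusted p = 4.6e-09), -2.12 ± 0.17 in SYD2 (4.36-fold lower, adjusted p = 6.3e-08) and -2.97 ± 0.18 in HsMYO (7.82-fold lower, adjusted p = 1.3e-09), each ± SE with 2 libraries per group. Its size exceeded that of 94.7% to 96.1% of all tested genes, depending on the line.

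SnRK2.9 moved the other way, at counts near the detection limit. It had 4 and 4 counts on ABA in SYD1, 4 and 3 counts on ABA in SYD2, and 9 and 3 counts on ABA in HsMYO, and 0 counts in each of the 6 ethanol libraries. All 6 ABA libraries were thus above all 6 ethanol libraries, but 2 of them held only 3 counts. Against a floor of 3 counts over the ethanol libraries, the observed ABA level was at least 2.41-fold higher in SYD1 and at least 2.52-fold higher in SYD2. It was at least 3.38-fold higher in HsMYO and at least 8.42-fold higher over the 3 lines together. These ratios take the 8, 7 and 12 ABA counts of SYD1, SYD2 and HsMYO as observed, without their counting error. They are therefore not lower limits on the true change. An exact permutation test of the mean CPM, with treatment labels exchanged within each line, gave a two-sided p of 0.0093, the smallest its 216 arrangements allow. With every ABA library above every ethanol library this p could take no other value, so it adds nothing to the counts. It is not adjusted for the other genes. The floors cover only the counting error of the ethanol libraries.

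On ABA in HsMYO, 5 of the 9 tested members were called higher (26.9% of all tested genes were) and 3 lower (27.1% of all tested genes). In SYD1, 1 of 9 was called higher (21.7% of all tested genes) and 3 lower (25.2% of all tested genes). In SYD2, 1 of 9 was called higher (19.4% of all tested genes) and 3 lower (23.6% of all tested genes). The median log2 difference of the 9 was 0.03 in SYD1, -0.03 in SYD2 and 0.16 in HsMYO, against 0.00, 0.00 and 0.02 over all tested genes. Each treatment comparison uses its own line's ethanol libraries.

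**Figure D2:**
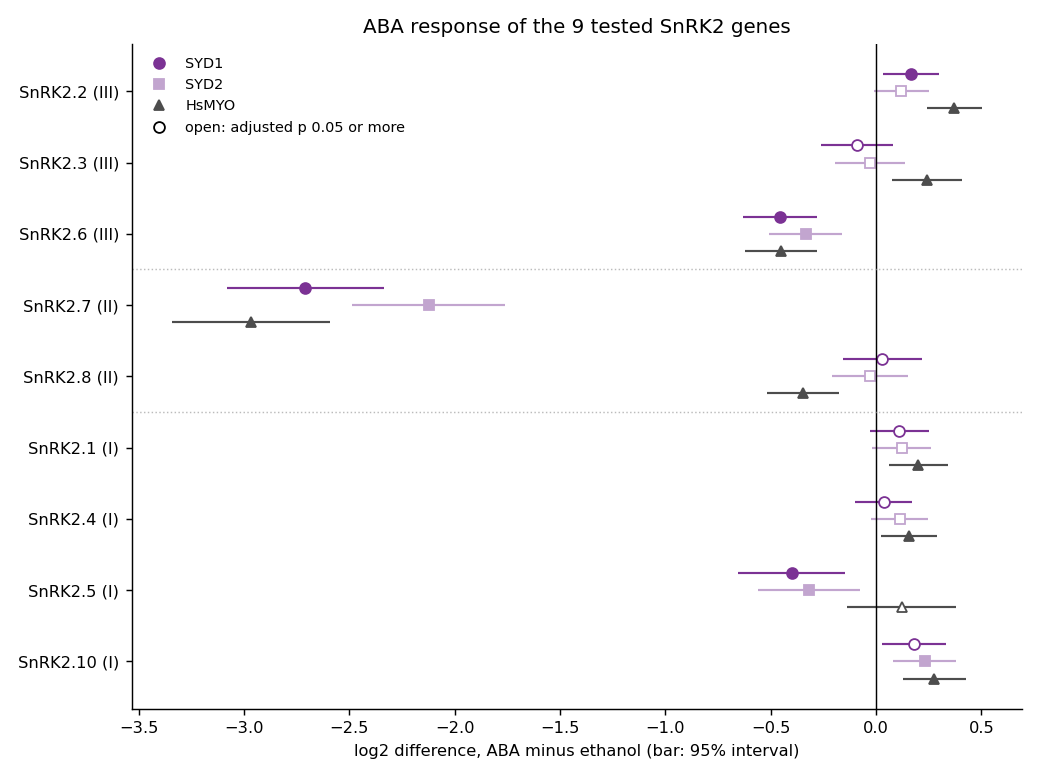
log2 difference between ABA and ethanol (horizontal axis, with 95% intervals) for the 9 tested SnRK2 genes in SYD1, SYD2 and HsMYO, n = 2 libraries per group; filled symbols were called and roman numerals give the subclass. SnRK2.6 and SnRK2.7 lie left of 0 in all 3 lines, SnRK2.8 does so in HsMYO with a filled symbol, and SnRK2.2 lies furthest right in HsMYO at 0.37.

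The 3 ABA-activated kinases did not move as a group. SnRK2.2 is one of the pair that acts mainly in seeds and seedlings. It had 141 and 142 CPM on ABA against 125 and 127 CPM on ethanol in SYD1. In SYD2 it had 146 and 144 CPM on ABA against 131 and 136 CPM on ethanol. In HsMYO it had 133 and 135 CPM on ABA against 101 and 106 CPM on ethanol. Its ABA libraries were above the ethanol libraries of their own line in all 3 lines. It rose in HsMYO by a log2 difference of 0.37 ± 0.06 (1.29-fold, adjusted p = 0.00012) and in SYD1 by 0.17 ± 0.06 (1.12-fold, adjusted p = 0.040). In SYD2 the difference was 0.12 ± 0.06 and not called (adjusted p = 0.13). The SYD1 call ended in 8 of 17 alternatives: without the low-count filter (adjusted p = 0.092), in DESeq2 (0.071), without each SYD1 library (log2 differences of 0.16 to 0.18 and adjusted p of 0.11 to 0.16) and without each SYD2 library on ABA (0.17, adjusted p = 0.054 both times).

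SnRK2.3, the closest relative of SnRK2.2 with 84.4% of aligned coding bases identical, had 56.3 and 60.5 CPM on ABA against 61.3 and 63.1 CPM on ethanol in SYD1, 70.6 and 65.7 CPM on ABA against 64.8 and 74.2 CPM on ethanol in SYD2, and 68.8 and 76.1 CPM on ABA against 62.5 and 60.1 CPM on ethanol in HsMYO. ABA libraries were below ethanol libraries in SYD1, mixed with them in SYD2 and above them in HsMYO. It was called higher in HsMYO alone, by a log2 difference of 0.24 ± 0.08 (1.18-fold, adjusted p = 0.016). That call ended when HsMYO on ABA replicate 2 was left out (0.16, adjusted p = 0.15), without HsMYO on ethanol replicate 2 (0.21, adjusted p = 0.10) and in DESeq2 (adjusted p = 0.058). In SYD1 the difference was -0.09 (95% interval -0.26 to 0.08) and in SYD2 -0.03 (-0.20 to 0.14). An annotated antisense RNA, AT5G09785, overlaps SnRK2.3 over 383 bases; it had 0 to 4 counts per library.

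SnRK2.6 fell on ABA in every line. It had 28.7 and 32.0 CPM on ABA against 41.9 and 41.7 CPM on ethanol in SYD1, 30.7 and 30.5 CPM on ABA against 39.6 and 37.7 CPM on ethanol in SYD2, and 27.5 and 27.0 CPM on ABA against 34.3 and 40.1 CPM on ethanol in HsMYO. No ABA library reached the lowest ethanol library. The log2 difference was -0.46 ± 0.08 in SYD1 (1.37-fold lower, adjusted p = 0.00029), -0.33 ± 0.08 in SYD2 (1.26-fold lower, adjusted p = 0.0035) and -0.45 ± 0.08 in HsMYO (1.37-fold lower, adjusted p = 0.00022). The call held in all 17 alternatives in each line.

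SnRK2.6 is known for its role in guard cells, so the markers of that lineage were read beside it. Their summed level was 20.4 to 22.9 CPM in the 4 SYD libraries on ABA and 24.8 to 25.9 CPM in the 4 on ethanol. In HsMYO it was 32.0 to 40.0 CPM on ABA and 48.7 to 51.4 CPM on ethanol. SPCH and TOO MANY MOUTHS made up most of this sum. HT1 was highest in HsMYO on ethanol, with a group mean of 1.01 CPM. MYB60 and SLAC1 were near the detection limit in every group. Their group means were at most 0.189 and 0.0591 CPM, from 9 and 3 counts over the group. Of 8 markers, 6 were tested; on ABA 2 were called lower in SYD1, 1 in SYD2 and 3 in HsMYO, against 25.2%, 23.6% and 27.1% of all tested genes, and none was called higher. The markers did not move as 1: TOO MANY MOUTHS, a receptor-like protein of the stomatal lineage, had group means of 11.1 CPM on ABA and 11.1 CPM on ethanol in SYD1, 10.1 and 9.12 CPM in SYD2, and 21.0 and 21.1 CPM in HsMYO. MYB60 was at 0 in SYD1 and HsMYO on ABA, KAT1 in SYD1 on ABA and SLAC1 in SYD2 on ethanol. On both media the marker sum was lower in the SYD lines than in HsMYO. SPCH and TOO MANY MOUTHS were called lower there on ABA (-0.96 and -0.98) and on ethanol (-1.05 and -1.07). KAT1 was called lower on both media and HT1 on ethanol (-1.20). FAMA, the factor of guard cell identity, was called higher on ABA (0.93, adjusted p = 0.0024) and on ethanol (0.83, adjusted p = 0.0042). Of all tested genes, 15.9% were called lower and 16.8% higher on ABA, and 14.5% and 17.7% on ethanol. SnRK2.6 was called between the SYD lines and HsMYO on neither medium. The part of guard cells in the SnRK2.6 result was not tested.

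The ratio of SnRK2.2 to SnRK2.6 (CPM per kb) was 4.99 to 5.54 on ABA and 3.37 to 3.44 on ethanol in SYD1, 5.34 to 5.36 on ABA and 3.74 to 4.07 on ethanol in SYD2, and 5.45 to 5.64 on ABA and 2.98 to 3.32 on ethanol in HsMYO. The 3 ABA-activated genes together made up 42.3 ± 0.3% of summed SnRK2 CPM per kb on ABA and 42.4 ± 0.1% on ethanol in SYD1, 42.7 ± 0.3% on ABA and 43.4 ± 0.5% on ethanol in SYD2, and 42.2 ± 0.4% on ABA and 39.7 ± 0.7% on ethanol in HsMYO (SD, n = 2 each). HsMYO on ethanol was thus the lowest of the 6 groups. Subclass II made up 8.31 ± 0.51% on ABA and 13.4 ± 0.4% on ethanol in HsMYO, and 6.42% to 8.43% as group means in the SYD lines. No test was run on these shares.

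**Figure D3:**
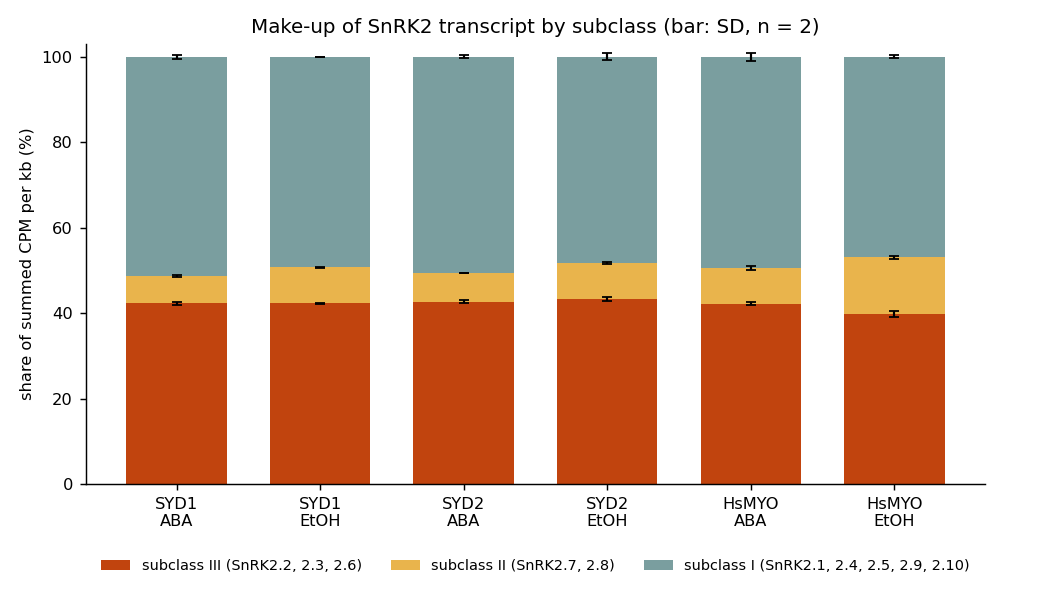
Share of summed SnRK2 CPM per kb (vertical axis, percent, from 0) held by subclass III, II and I in each group; bars are SD over 2 libraries. Subclass III holds 39.7% to 43.4% of the total in all groups, and subclass II is widest in HsMYO on ethanol at 13.4%.

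SnRK2.8, the partner of SnRK2.7 in subclass II, had 34.0 and 36.8 CPM on ABA against 33.1 and 36.3 CPM on ethanol in SYD1, 39.5 and 38.5 CPM on ABA against 36.6 and 42.7 CPM on ethanol in SYD2, and 45.4 and 50.9 CPM on ABA against 61.4 and 61.2 CPM on ethanol in HsMYO. ABA and ethanol libraries overlapped in both SYD lines and were apart in HsMYO. It fell on ABA in HsMYO by 0.35 ± 0.08 on the log2 scale (1.27-fold lower, adjusted p = 0.0019), a call that held in all 17 alternatives. In SYD1 the difference was 0.03 (95% interval -0.16 to 0.22) and in SYD2 -0.03 (-0.21 to 0.15).

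In subclass I beside SnRK2.9, SnRK2.10 had 83.5 and 86.6 CPM on ABA against 77.0 and 73.4 CPM on ethanol in SYD1, 90.5 and 84.4 CPM on ABA against 75.8 and 73.3 CPM on ethanol in SYD2, and 87.1 and 80.8 CPM on ABA against 72.7 and 66.0 CPM on ethanol in HsMYO. ABA libraries were above ethanol libraries in each line. It rose in SYD2 by 0.23 ± 0.07 on the log2 scale (adjusted p = 0.016) and in HsMYO by 0.28 ± 0.07 (adjusted p = 0.0037), and had a difference of 0.18 ± 0.07 in SYD1 (adjusted p = 0.053). The SYD2 call ended without SYD2 on ABA replicate 1 (0.18, adjusted p = 0.14) and without SYD2 on ethanol replicate 2 (0.21, adjusted p = 0.082), and the HsMYO call without HsMYO on ethanol replicate 2 (0.21, adjusted p = 0.063). The SYD1 difference was called in 4 of 17 alternatives. These were the fit of only the groups compared (0.18, adjusted p = 0.011) and the replicate number as a block (0.18, adjusted p = 0.021). The others left out HsMYO on ABA replicate 1 (0.18) or replicate 2 (0.17).

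SnRK2.1 had 124 and 128 CPM on ABA against 115 and 118 CPM on ethanol in SYD1, 133 and 132 CPM on ABA against 116 and 126 CPM on ethanol in SYD2, and 118 and 123 CPM on ABA against 102 and 107 CPM on ethanol in HsMYO. Its ABA libraries lay above those on ethanol in every line, and it was called in HsMYO alone (log2 difference 0.20 ± 0.07, adjusted p = 0.018). The call ended when HsMYO on ABA replicate 2 was left out (0.17, adjusted p = 0.079), without HsMYO on ethanol replicate 1 (0.16, adjusted p = 0.15), without SYD1 on ABA replicate 1 (0.17, adjusted p = 0.060) and under 3 other alternatives. SnRK2.4, a root kinase of osmotic and salt stress, ranged from 61.5 to 72.1 CPM on ABA and from 56.3 to 63.1 CPM on ethanol over the 3 lines. Its call in HsMYO (0.16 ± 0.06, adjusted p = 0.045) ended in 15 of 17 alternatives, 11 of them with 1 library left out (0.09 to 0.17, adjusted p of 0.051 to 0.28); among libraries it held only without HsMYO on ABA replicate 1.

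SnRK2.5, the closest relative of SnRK2.1 at 86.8% identical coding bases, had 22.2 and 21.0 CPM on ABA against 26.4 and 30.5 CPM on ethanol in SYD1, 22.8 and 26.8 CPM on ABA against 33.5 and 28.6 CPM on ethanol in SYD2, and 19.4 and 16.7 CPM on ABA against 14.9 and 18.2 CPM on ethanol in HsMYO. ABA libraries were below ethanol libraries in both SYD lines and overlapped them in HsMYO. It fell in SYD1 by 0.40 ± 0.12 on the log2 scale (1.32-fold lower, adjusted p = 0.012) and in SYD2 by 0.32 ± 0.11 (1.25-fold lower, adjusted p = 0.035), with a difference of 0.12 ± 0.12 in HsMYO that was not called (adjusted p = 0.42). The SYD1 call ended without SYD1 on ABA replicate 2 (-0.36, adjusted p = 0.090) and without SYD1 on ethanol replicate 2 (-0.29, adjusted p = 0.14). The SYD2 call ended without SYD2 on ABA replicate 1 (-0.20, adjusted p = 0.29), without SYD2 on ethanol replicate 1 (-0.21, adjusted p = 0.24), without SYD1 on ABA replicate 1 (-0.31, adjusted p = 0.052) and in DESeq2 (adjusted p = 0.061).

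Between genotypes on ethanol, SnRK2.8 and SnRK2.5 changed most. There, 3 of the 9 tested members were called higher in the mean of both SYD lines than in HsMYO (17.7% of all tested genes were) and 1 lower (14.5% of all tested genes). SnRK2.8 had 33.1 to 42.7 CPM in the 4 SYD libraries on ethanol against 61.4 and 61.2 CPM in HsMYO, and fell by 0.72 ± 0.07 on the log2 scale (1.65-fold lower, adjusted p = 1.9e-06). SnRK2.5 had 26.4 to 33.5 CPM in the SYD libraries against 14.9 and 18.2 CPM in HsMYO, and rose by 0.84 ± 0.11 (1.79-fold, adjusted p = 2.4e-05). The SYD and HsMYO libraries did not overlap in either gene, and both calls held in all 17 alternatives. Each line alone differed from HsMYO the same way, by -0.82 in SYD1 and -0.62 in SYD2 for SnRK2.8 (adjusted p = 4.6e-06 and 5.4e-05) and by 0.78 in SYD1 and 0.90 in SYD2 for SnRK2.5 (adjusted p = 0.00021 and 5.1e-05). SnRK2.2 rose by 0.33 ± 0.05 (1.25-fold, adjusted p = 0.00031), also in all 17.

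SnRK2.1 was the remaining call on ethanol (0.18 ± 0.06, adjusted p = 0.025). It ended in 7 alternatives: without HsMYO on ethanol replicate 1 (0.14, adjusted p = 0.23) or 2 (0.22, adjusted p = 0.061), without SYD1 on ethanol replicate 2 (0.17, adjusted p = 0.070), SYD2 on ethanol replicate 2 (0.15, adjusted p = 0.070) or SYD1 on ABA replicate 1 (0.16, adjusted p = 0.066), and under 2 that left out no library. SnRK2.6 and SnRK2.3 differed by 0.11 (95% interval -0.04 to 0.25) and 0.10 (-0.04 to 0.25) and were not called.

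On ABA, 2 of the 9 were called higher in the SYD lines than in HsMYO (16.8% of all tested genes) and 3 lower (15.9% of all tested genes). SnRK2.8 was again lower, with 34.0 to 39.5 CPM in the SYD libraries on ABA against 45.4 and 50.9 CPM in HsMYO (log2 difference -0.37 ± 0.07, 1.29-fold lower, adjusted p = 0.00097), and this call held in all 17 alternatives. Each of the other 4 calls ended under some alternatives. SnRK2.5 was higher (0.36 ± 0.10, adjusted p = 0.015), except when HsMYO on ABA replicate 2 (0.26) or SYD2 on ABA replicate 2 (0.30) was left out. Against HsMYO, SYD1 alone differed by 0.26 and was not called (adjusted p = 0.13), and SYD2 alone differed by 0.46 (adjusted p = 0.010). SnRK2.7 was higher (0.64 ± 0.20, adjusted p = 0.023), except when HsMYO on ABA lost replicate 1 (0.62, adjusted p = 0.093) or 2 (0.67, adjusted p = 0.077), without SYD1 on ABA replicate 1 (0.60, adjusted p = 0.062) and in DESeq2 (adjusted p = 0.054).

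SnRK2.3 was lower on ABA in the SYD lines by 0.20 ± 0.07 on the log2 scale (adjusted p = 0.034), although the SYD and HsMYO libraries overlapped: against HsMYO, SYD1 differed by -0.31 (adjusted p = 0.0090) and SYD2 by -0.09 (adjusted p = 0.44). The call on the mean ended with any of 3 libraries left out: HsMYO on ABA replicate 2 (-0.12, adjusted p = 0.29), SYD1 on ABA replicate 1 (-0.16, adjusted p = 0.15) or SYD2 on ABA replicate 2 (-0.17, adjusted p = 0.11), with RLE scaling (adjusted p = 0.057) and in DESeq2 (adjusted p = 0.12). The SnRK2.4 call (-0.15 ± 0.05, adjusted p = 0.045) ended in 15 of 17 alternatives, 11 of them with 1 library left out (-0.15 to -0.09, adjusted p of 0.054 to 0.32), and again held among libraries only without HsMYO on ABA replicate 1. SnRK2.6 was not called (0.16 ± 0.07, adjusted p = 0.092), but was without SYD1 on ABA replicate 1 (0.22, adjusted p = 0.046).

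**Figure D4:**
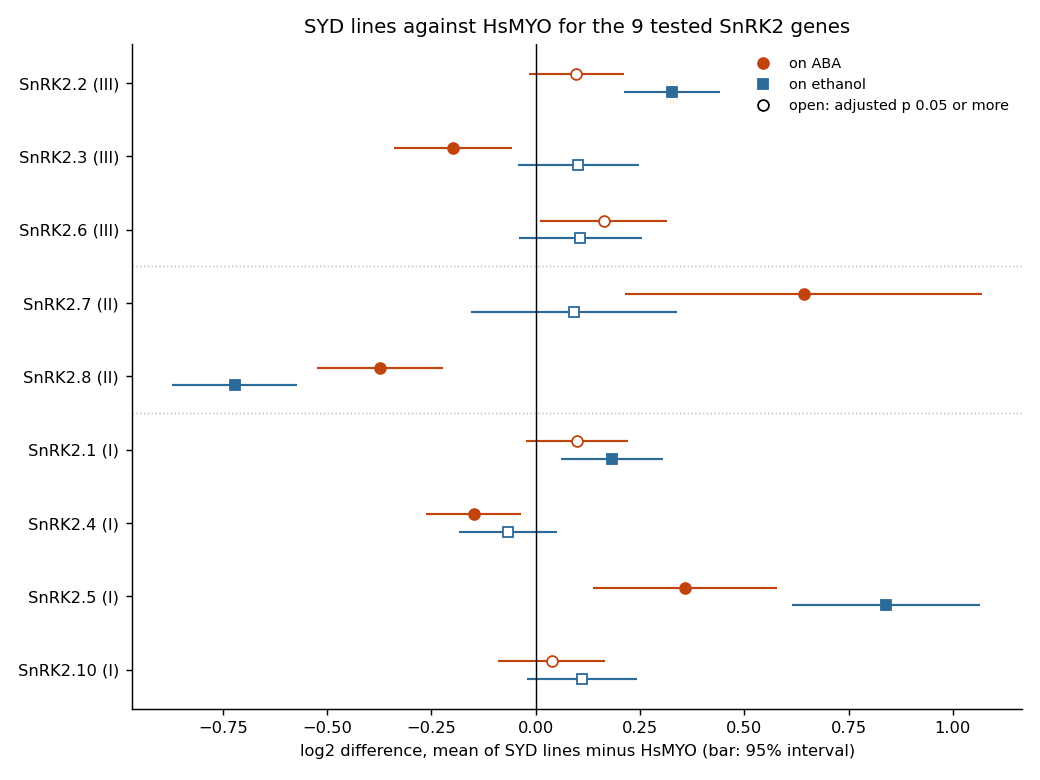
log2 difference between the mean of SYD1 and SYD2 and HsMYO (horizontal axis, with 95% intervals) on ABA and on ethanol for the 9 tested SnRK2 genes, 4 SYD libraries against 2 HsMYO libraries on each medium; filled symbols were called. SnRK2.8 lies left of 0 and SnRK2.5 right of 0 on both media, further out on ethanol (-0.72 and 0.84) than on ABA (-0.37 and 0.36).

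Whether the ABA response itself differed between the SYD lines and HsMYO was tested as an interaction. None of the 9 members was called (5.14% of all tested genes were, in either direction), none was called by DESeq2, and 5 had an unadjusted p under 0.05. The share of all tested genes under that unadjusted threshold was not taken, so the 5 have no background to be read against. The nearest were SnRK2.8 (0.35 ± 0.10, adjusted p = 0.061), SnRK2.5 (-0.48 ± 0.15, adjusted p = 0.076), SnRK2.3 (-0.30 ± 0.10, adjusted p = 0.089) and SnRK2.2 (-0.23 ± 0.08, adjusted p = 0.10). SnRK2.8 was called with RLE scaling (0.37, adjusted p = 0.044), with no low-count filter (0.38, adjusted p = 0.0034), without HsMYO on ABA replicate 2 (0.43, adjusted p = 0.034) and without SYD2 on ethanol replicate 2 (0.41, adjusted p = 0.020). SnRK2.5 was called with no low-count filter (-0.45, adjusted p = 0.0043) and SnRK2.3 without HsMYO on ABA replicate 1 (-0.37, adjusted p = 0.035). With the replicate number as a block, SnRK2.8, SnRK2.5, SnRK2.3 and SnRK2.2 were all called (adjusted p of 0.013 to 0.048). For SnRK2.7 the interaction was 0.55 ± 0.23 (adjusted p = 0.21), and for SnRK2.6 0.06 (95% interval -0.16 to 0.27). In the main fit, a member called in HsMYO and not in the SYD lines was therefore not shown to respond differently.

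SYD1 and SYD2 did not differ in any tested member by the same test. On ABA 0 of 9 were called (0.846% of all tested genes were), 0 by DESeq2, and 1 had an unadjusted p under 0.05. On ethanol 0 of 9 were called (0.688% of all tested genes), 0 by DESeq2, and 2 had an unadjusted p under 0.05. For these unadjusted counts, too, no share over all tested genes was taken. The widest differences were -0.22 ± 0.08 for SnRK2.3 on ABA (adjusted p = 0.36) and 0.39 ± 0.13 for SnRK2.7 on ethanol (adjusted p = 0.27).

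Gene overlap may bear on several of these values. The library kit was stranded, but the strand setting of the counting is not given in the sources used here. AT5G63640 overlaps SnRK2.5 on the opposite strand over 382 bases, and 17.9% of the 100-base windows of the SnRK2.5 transcript are shared with it. Between genotypes AT5G63640 differed by -0.05 on ABA (adjusted p = 0.54) and by -0.02 on ethanol (adjusted p = 0.83), where SnRK2.5 was higher in the SYD lines. AT1G78280 overlaps SnRK2.8 on the opposite strand over 169 bases (3.75% of windows). Between genotypes AT1G78280 differed by 0.18 on ABA (adjusted p = 0.085) and 0.27 on ethanol (adjusted p = 0.014), where SnRK2.8 was lower in the SYD lines. On ABA, AT5G63640 rose in all 3 lines by 0.27 to 0.33 on the log2 scale. No 100-base window was shared between any pair of SnRK2 members. The part of reads from overlapping genes in the SnRK2 values was not tested.

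Genes that act next to the kinases were read as lists. All 9 clade A PP2C phosphatases, the inhibitors of SnRK2, were tested and called in each line, 8 higher and 1 lower on ABA. Of all tested genes, 21.7% were called higher and 25.2% lower in SYD1, 19.4% and 23.6% in SYD2, and 26.9% and 27.1% in HsMYO. The median log2 differences of the 9 were 1.37 in SYD1, 1.57 in SYD2 and 1.76 in HsMYO, against 0.00, 0.00 and 0.02 over all tested genes. HAI1 had 0 counts in both SYD2 libraries on ethanol, and the SYD2 median is the same with HAI1 at its bound. AHG1, a seed phosphatase, rose by 4.72, 3.67 and 4.61 in SYD1, SYD2 and HsMYO, and HAI2 by 2.34, 2.48 and 3.69. ABI1 was the 1 that fell, with log2 differences of -1.38 in SYD1, -1.43 in SYD2 and -0.70 in HsMYO. The interaction called 3 of the 9, HAI2 (-1.28, adjusted p = 0.00017), HAI3 (-0.80, adjusted p = 0.0087) and ABI1 (-0.71, adjusted p = 0.0054), all negative. Over all tested genes 5.14% were called in either direction. On ethanol all 3 were higher in the SYD lines than in HsMYO, HAI2 by 1.30 (adjusted p = 2.3e-06), HAI3 by 0.55 (adjusted p = 0.0078) and ABI1 by 1.30 (adjusted p = 1.3e-07). ABI1 was also higher in the SYD lines on ABA (0.59, adjusted p = 0.00028), so its negative interaction was a deeper fall from a higher level.

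Of 17 reported SnRK2 substrates, 16 were tested; KAT1 and SLAC1 are also in the guard cell list. On ABA 10 were called higher and 5 lower in SYD1, 9 and 5 in SYD2, and 8 and 4 in HsMYO. Over all tested genes the shares were 21.7% and 25.2% in SYD1, 19.4% and 23.6% in SYD2, and 26.9% and 27.1% in HsMYO, so the counts of lower substrates were near the background. ABI5, the bZIP factor of ABA arrest, rose, with log2 differences of 3.03 in SYD1, 3.02 in SYD2 and 2.86 in HsMYO. RAV1 and HAT1, transcription factors that repress ABA-pathway genes, fell, with log2 differences of -5.73 and -4.41 in SYD1, -5.74 and -3.80 in SYD2 and -5.66 and -4.51 in HsMYO. RBOHF, a respiratory burst NADPH oxidase, was lower in the SYD lines than in HsMYO on ABA (-1.41, adjusted p = 4.4e-08) and on ethanol (-0.79, adjusted p = 1.1e-05). ABF1 was higher on ABA (0.72, adjusted p = 0.00017) and on ethanol (1.07, adjusted p = 1.9e-05).

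RAF-type kinases were listed by their groups B2, B3 and B4, a class with members that phosphorylate SnRK2s. Only 4 of the 19 listed, CTR1, EDR1, RAF10 and RAF11, are named in the reference annotation and were used. Their counts do not stand for the whole class. On ABA 1 was called higher and 1 lower in SYD1, 1 and 2 in SYD2, and 1 and 2 in HsMYO; CTR1, a kinase of ethylene signalling, had log2 differences of -0.96, -0.91 and -0.58 in SYD1, SYD2 and HsMYO. The sister families were also listed. Of 6 subunits of SnRK1, the energy-sensing kinase, 1 was called higher and 2 lower in SYD1, 0 and 2 in SYD2 and in HsMYO, with KINBG at log2 differences of -0.27, -0.33 and -0.45 in SYD1, SYD2 and HsMYO. Of 26 SnRK3 (CIPK) kinases, which work with calcium-binding CBL proteins, 20 were tested; on ABA 4 were higher and 8 lower in SYD1, 4 and 7 in SYD2, and 7 and 7 in HsMYO. These RAF, SnRK1 and CIPK counts stand against 21.7% of all tested genes higher and 25.2% lower in SYD1, 19.4% and 23.6% in SYD2, and 26.9% and 27.1% in HsMYO; the 4 of 20 higher CIPK genes in SYD1 and in SYD2 are near that share. CIPK17 fell, with log2 differences of -4.33, -2.79 and -2.71 in SYD1, SYD2 and HsMYO.

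The remaining seed lists gave the following counts. Of 5 tested endosperm markers, 2 were higher on ABA in SYD1 and 3 in SYD2 and in HsMYO, none lower, with MAN7 up by 2.44, 2.46 and 2.65 in SYD1, SYD2 and HsMYO. Of 3 tested seed coat markers, 2 were lower in each line. Of 7 seed reserve and mobilisation genes, 4 were higher in SYD1 and in SYD2 and 3 in HsMYO, none lower, with OLEO2, an oil body oleosin, up by 5.59, 5.21 and 5.53. Of all tested genes 21.7% were higher and 25.2% lower in SYD1, 19.4% and 23.6% in SYD2, and 26.9% and 27.1% in HsMYO, and lists of 3 to 7 genes are too short to be read closely against those shares. The part of these tissues in the SnRK2 values was not tested.

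The transcripts most like each ABA-activated kinase were ranked by Pearson correlation of log2 CPM over the 12 libraries, which share treatment groups and depth; this is a description. For SnRK2.2 they were AT4G34790 (r = 0.989), AT3G27770 (0.988) and AT1G19540 (0.983), and among the family SnRK2.1 (0.960). For SnRK2.6 they were IAA18 (0.985), GSH2 (0.984) and CCR2 (0.983), and among the family SnRK2.7 (0.938). For SnRK2.3 they were NRT1:2 (0.904), AT1G34640 (0.864) and AT5G09295 (0.856). Within the ABA-activated group, r was 0.298 between SnRK2.2 and SnRK2.3 and -0.465 between SnRK2.2 and SnRK2.6.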

How the data were processed

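RNA from germinating seeds was sequenced in 12 libraries as 100 bp pairs from a stranded mRNA kit, per the labels' protocols. The authors deposited raw counts per gene, 1 column per library. Per the submitters' processing notes, Trimmomatic 0.39 and STAR 2.7.10a were used and the build was TAIR10. How reads were counted, with which strand setting and with which treatment of multiply placed reads, is not given in the sources used here. Total counts ran from 18713555 to 30012796 per library, so that 3 counts equal 0.101 to 0.162 CPM; such floors cover counting error only.

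The analysis ran in edgeR 4.0.16 under R 4.3.3. Of 36795 entries, 10729 had 0 counts throughout and 19612 passed filterByExpr with a minimum count of 10. TMM scaling was used, and a single quasi-likelihood model of all 12 libraries gave each group its own mean, with 6 residual and 9.2 prior degrees of freedom; the common biological coefficient of variation was 6.27%. Contrasts were two-sided, with Benjamini-Hochberg adjustment over the tested genes; log2 differences carry their SE. The script was tested on simulated data. Replicates differed by more than counting error (chi-square per degree of freedom 2.40 to 13.3).

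Names, exon lengths, overlaps and promoters came from the TAIR10.1 annotation, matched by locus (36632 entries); its nuclear chromosome lengths are those of TAIR10. The likeness ranking used log2 CPM with a prior count of 2.

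The members and gene lists were chosen with earlier results of these data known. All 10 SnRK2 genes are named, SYD as the targeted gene, at most 4 called genes per other list and contrast by size of change, and the 3 genes most like each ABA-activated kinase; overlapping neighbours were added. Alternatives were RLE scaling, DESeq2 1.42.0, no low-count filter, the replicate number as a block, only the groups compared, and each library left out in turn. The scaling of the SnRK2.9 bound was varied after seeing the data.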

Additional observations from a re-analysis of the deposited data

Results flagged for a closer look

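SnRK2.3 libraries lay on opposite sides of their ethanol libraries in SYD1 and HsMYO: both SYD1 libraries on ABA were below both on ethanol, and both HsMYO libraries on ABA were above both on ethanol. The SYD1 difference was not called (-0.09, adjusted p = 0.39), and the HsMYO call (0.24, adjusted p = 0.016) ended in 3 of 17 alternatives. The ABA response of SYD1 minus that of HsMYO was -0.33 ± 0.11 on the log2 scale. The difference itself was tested as an interaction in edgeR and was not called (adjusted p = 0.16). SYD2 minus HsMYO was -0.27 ± 0.11 (adjusted p = 0.22), with overlapping SYD2 libraries.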

How the results depend on the processing

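Over 2286 values of members under the alternatives, 2164 kept their call, 95 lost it, 27 gained it and 0 called values changed sign; 51 uncalled ones did. Calls on ABA in HsMYO, 8 at first, ranged from 5 to 8 with 1 library left out (5 without HsMYO on ABA replicate 2 or HsMYO on ethanol replicate 2), those in SYD1, 4 at first, from 2 to 5 and those in SYD2, 4 at first, from 2 to 4. The 5 calls of SYD lines against HsMYO on ABA became 3 with RLE scaling, 2 in DESeq2 and 1 to 4 with 1 library left out. The 0 interaction calls became 1 with RLE scaling (SnRK2.8) and 2 with no low-count filter, and also changed with some libraries left out. A fit of only the groups compared was not run for the interaction, which already uses all 6 groups. With the replicate block the interaction called 4 members (SnRK2.2, SnRK2.3, SnRK2.5 and SnRK2.8) and, over all genes, 1628 against 1008. The labels give no pairing beyond the replicate number. Residual correlations between same-numbered libraries were -0.03 to 0.15 (median 0.07), so whether replicate numbers pair the samples stayed unsettled. The cause of these changes was not tested. The share of the ABA-activated genes was 40.2% and 40.5% with coding length and 40.9% and 41.3% with no length in SYD1 on ABA and ethanol, 40.5% and 41.4%, and 41.2% and 42.1%, in SYD2, and 39.9% and 37.7%, and 40.6% and 38.5%, in HsMYO; HsMYO on ethanol stayed lowest. With total counts in place of TMM, the SnRK2.9 bound was 8.45-fold in place of 8.42-fold. Over all genes, interaction calls, 1008 at first, ranged from 540 (without HsMYO on ethanol replicate 1) to 1817 (no low-count filter), with 1584 without HsMYO on ABA replicate 1, SYD1 against SYD2 from 36 to 471 around 166 on ABA and from 13 to 616 around 135 on ethanol, and SYD lines against HsMYO on ethanol fell to 3455, against 6311, without HsMYO on ethanol replicate 1. List counts on ABA moved by over 1.5 times in SYD1 for RAF-type kinases (2 to 1), SnRK1 (3 to 1), guard cell markers (2 to 1) and seed reserve genes (4 to 7), in HsMYO for SnRK1 (2 to 1) and in SYD2 for seed coat markers (2 to 0 or 1). SnRK2.9, with at most 9 counts in a library, limits what depth can show.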
